A study of Mus musculus with 2 samples.

Results

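Among 27031 counted genes, 10 are described here: 3 members of the inhibitor of DNA binding (ID) family, *Id1*, *Id2* and *Id3*, and 7 genes of transforming growth factor beta (TGF-β) and activin signaling, *Inhba*, *Tgfb1*, *Tgfbr1*, *Tgfbr2*, *Tgfbi*, *Smad7* and *Skil*. They were chosen by name with the measured comparison of telmisartan-treated and control macrophages already known, in which *Id3* had one of the largest rises, so the differences between the groups are a description and were not tested. The tumors were MC38, a mouse colorectal cancer line, grown under the skin of female C57BL/6 mice that were 6 to 8 weeks old when obtained. Control mice received vehicle and telmisartan-treated mice received 5 mg/kg telmisartan, which blocks the AT1 receptor of angiotensin II and partially activates PPARγ, by daily gavage from implantation to harvest on day 13. Live CD45+ cells (leukocytes) of 5 mice per group were pooled, the pools were labeled with Sample Tag 1 (control) and Sample Tag 2 (telmisartan), and both went through 1 BD Rhapsody capture. Each group is therefore 1 pool in which single mice cannot be told apart, and no spread between mice can be given. All intervals in parentheses are exact 95% intervals and cover counting error only.

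After quality limits, 4535 control cells held 41591125 unique molecular identifiers (UMIs, counted molecules), with a median of 8689 per cell. The 4434 telmisartan-treated cells held 30921742, with a median of 6357.5. The limits on genes and mitochondrial UMIs kept 5078 of 8738 tagged control cells and 4833 of 10222 tagged telmisartan-treated cells, a larger loss in the treated pool whose part in the results was not tested. Because the treated cells were shallower, levels are given as CPM, the summed UMIs of a gene in a class scaled to a class total of 1000000, and shares of cells with a UMI are also given after every cell was thinned to 1000 UMIs.

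TGF-β and activins are secreted dimers that bring together a type II and a type I receptor kinase, which phosphorylate SMAD2 and SMAD3; bone morphogenetic proteins (BMPs) use related receptors and SMAD1 and SMAD5. SMAD7 and the corepressor SnoN, encoded by *Skil*, restrain the response and are themselves induced by it. ID proteins bind E proteins, a class of basic helix-loop-helix transcription factors, and keep them off DNA, and their genes are classical targets of BMP signaling; in the myeloid lineage ID2 is needed for some dendritic cells and ID3 has been tied to the identity of resident macrophages.

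Clustering without the genes of these pathways gave 4 classes. Macrophage-like cells made up 8053 of the cells kept (4049 control and 4004 telmisartan-treated, with median depths of 8977 and 6460.5 UMIs). They are the remainder, clusters in which no marker list of another class was raised, and all 11 macrophage or monocyte markers were detected in them, as they also were in the T-like cluster. The remaining cells were 659 dendritic-like (366 and 293), 185 T-like (72 and 113) and 72 neutrophil-like cells (48 and 24). Macrophage-like cells fell into 7 subclusters, which are called here by number and leading genes: subcluster 1 (*Cxcl9*, *Ccl24*, *Iigp1*), 2 (*Ereg*, *Cxcl3*, *Slpi*), 3 (*Apoe*, *Cbr2*, *Folr2*), 4 (*Retnla*, *Ly6c2*, *Slfn4*), 5 (*Serpinb2*, *Hmox1*, *Gpnmb*), 6 (the proliferation genes *Ccna2*, *Ube2c* and *Top2a*) and 7 (the interferon response genes *Ifit3*, *Ifit1* and *Ifit2*). Most control cells lay in subclusters 1, 3 and 2 (1432, 753 and 751 cells), whereas most telmisartan-treated cells lay in 2, 3 and 4 (1035, 852 and 724 cells). Subcluster 4 had a median of 2348 UMIs per cell, 0.333 of the depth of its own groups and the lowest of the 7, and carries no cell type name of its own. *Inhba* was among the leading genes of subcluster 2 and *Id3* among those of subcluster 4, and the levels of these genes there restate how the subclusters differ from the rest. Smaller subclusters were 5 dendritic-like ones (1 with *Cd209a*, 2 with *Ear2* and *Ccl17*, 3 with the maturation genes *Fscn1* and *Ccr7*, 4 and 5 with the cDC1 genes *Xcr1* and *Clec9a*) and 3 T-like ones (1 with granzymes and *Prf1*, 2 with *Cd8a* and *Cd8b1*, 3 with *Foxp3* and *Icos*).

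In macrophage-like cells 1 of the 10 genes, *Id3*, was at least 1.5-fold higher with telmisartan and 0 were at least 1.5-fold lower. Of the 11073 genes that reached a total of 100 UMIs over the 2 groups, 4.76% were at least 1.5-fold higher and 2.2% at least 1.5-fold lower. The 10 genes all had enough UMIs to be counted, and their median log2 ratio of telmisartan-treated to control was -0.02, beside -0.04 for all counted genes (quartiles -0.20 and 0.14). *Id3* lay well inside the limit at 4.84-fold and *Skil* just outside it at 1.48-fold. The next in order was *Id1* at 1.39-fold.

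**Figure D1:**
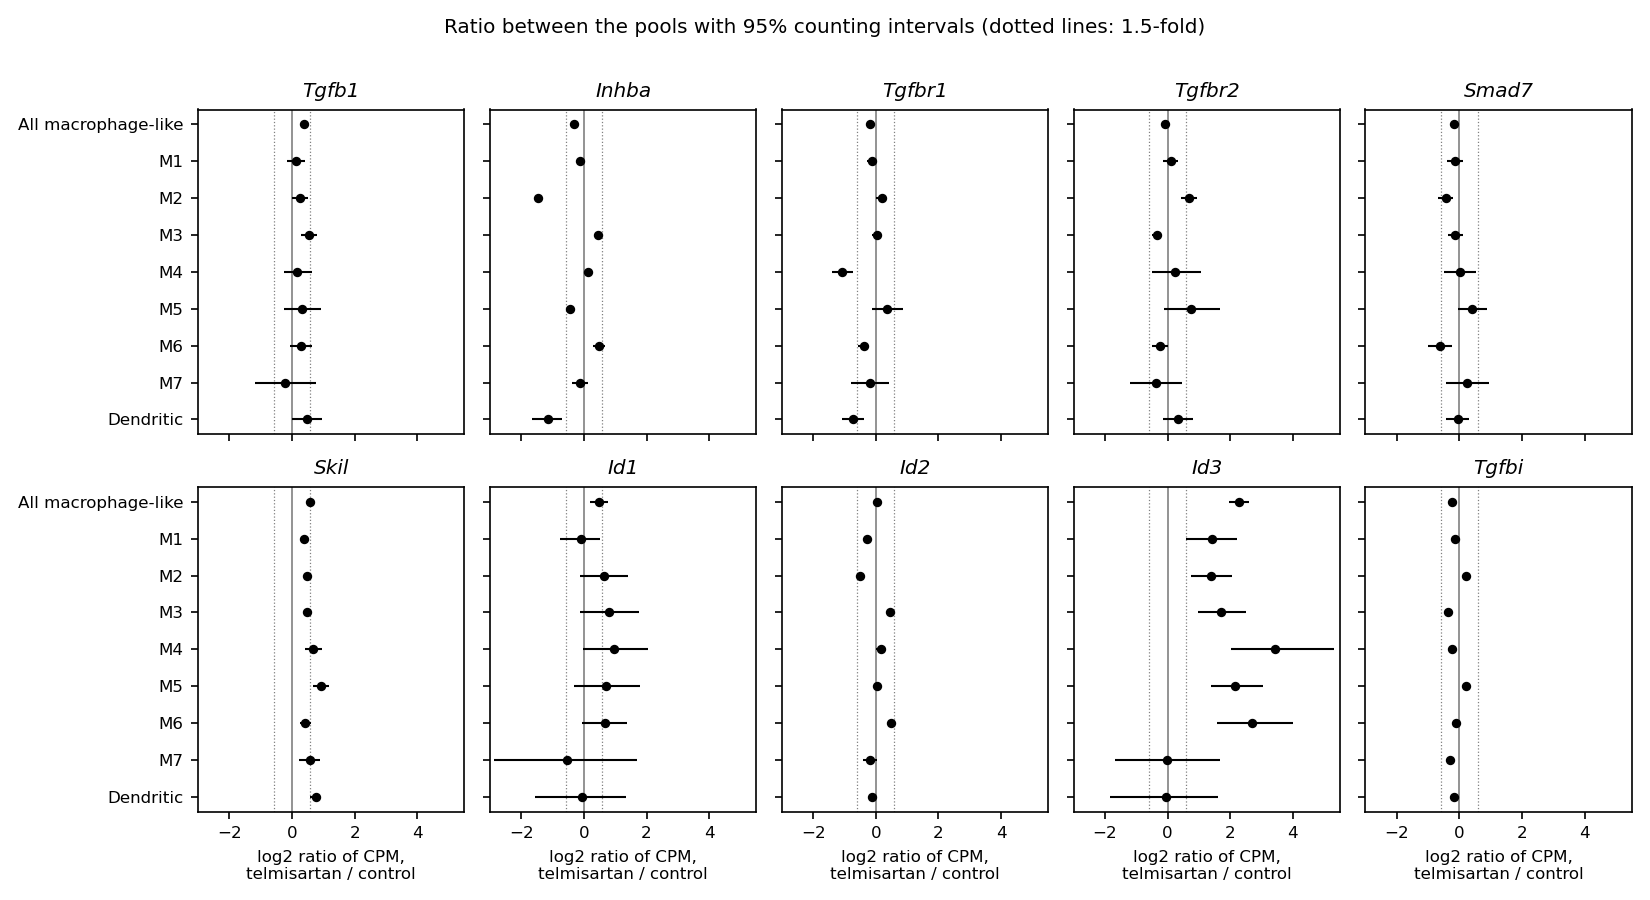
Log2 ratio of telmisartan-treated to control CPM (horizontal axis) of each of the 10 genes in all macrophage-like cells, macrophage subclusters M1 to M7 and dendritic-like cells, with exact 95% counting intervals as bars and 1 pool per group. *Id3* in macrophage-like cells stands at 2.27, *Skil* lies above 0 in all 7 macrophage subclusters, and *Inhba* reaches -1.46 in subcluster 2.

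Ligands come first. *Tgfb1* encodes TGF-β1, the TGF-β isoform most made by leukocytes. In macrophage-like cells its level was 29.2 CPM (27.5 to 31.0) in control and 38.0 CPM (35.8 to 40.3) in telmisartan-treated cells, a log2 ratio of 0.38 (0.26 to 0.50). Dendritic-like cells had 27.7 and 38.6 CPM, with a log2 ratio of 0.48 (0.01 to 0.95). T-like cells had 50.3 and 77.3 CPM from 22 and 35 UMIs, with a log2 ratio whose interval held 0 (-0.19 to 1.46). *Tgfb1* was thus higher with telmisartan in each of these classes, although in T-like cells the difference was within counting error. Among neutrophil-like cells only 3 and 5 UMIs were counted (log2 ratio 1.77, -0.59 to 4.46). Within macrophages 6 of 7 subclusters had a higher level with telmisartan and 1, subcluster 7, a lower one (34.2 and 29.6 CPM), but only in subclusters 2 and 3 did the interval leave out 0. The widest of these was subcluster 3, from 26.7 to 38.8 CPM.

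Orders of levels over cell types are given for both groups summed, and places can differ within a single pool. So summed, *Tgfb1* was highest in the granzyme T-like subcluster 1 (74.4 CPM, 50.9 to 105) and in macrophage subcluster 4 (74.1 CPM, 64.5 to 84.6), whose intervals overlapped. Within the pools macrophage subcluster 4 was first in control (68.1 CPM) and neutrophil-like cells were first with telmisartan (106 CPM from 5 UMIs). The lowest level was that of dendritic-like subcluster 5 (17.0 CPM, 4.64 to 43.6). Every neighbour in the order of 16 cell types had an overlapping interval. Among macrophages, subcluster 4 lay apart from the other 6, which ran from 28.8 to 33.7 CPM.

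*Inhba* encodes the βA subunit, which as a homodimer forms activin A. In macrophage-like cells its level went from 584 CPM (577 to 592) in control to 469 CPM (461 to 477) with telmisartan, a log2 ratio of -0.32 (-0.35 to -0.29). This sum hid opposite directions among subclusters. In subcluster 2 the level was 1568 CPM in control and 570 CPM with telmisartan (log2 ratio -1.46, -1.51 to -1.41). Subcluster 5 showed 2708 and 1980 CPM (-0.45, -0.52 to -0.39), and subcluster 1 showed 296 and 270 CPM (-0.13, -0.23 to -0.03). In subcluster 3 the level was instead higher with telmisartan, at 96.95 and 132 CPM (0.45, 0.31 to 0.59). Subcluster 6 moved the same way, with 82.4 and 114 CPM (0.47, 0.28 to 0.66). The levels in subcluster 4, 717 and 788 CPM (0.14, 0.00 to 0.27), and in subcluster 7, 455 and 417 CPM (-0.13, -0.37 to 0.12), were closer together.

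Subcluster 2 carried 55.5% of the *Inhba* UMIs of control macrophages and 36.6% of those of telmisartan-treated ones, while subcluster 5 carried 15.9% and 30.9%. With subcluster 2 left out, an alternative added after these values had been seen, the log2 ratio of the remaining macrophages was 0.38, so the lower total in the treated pool rested on that subcluster. Conversely, giving the subclusters the same weight in both groups brought the ratio to -0.61, past 1.5-fold. Within subcluster 2 the share of cells with an *Inhba* UMI after thinning was 46.3% (42.7 to 49.98) of 751 control cells and 22.0% (19.5 to 24.7) of 1035 treated cells, so fewer cells carried a UMI as well.

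Neutrophil-like cells had 2567 CPM of *Inhba* in control and 2454 CPM with telmisartan (log2 ratio -0.07, -0.40 to 0.26). Over both groups they came first and macrophage subcluster 5 next, at 2261 CPM with an overlapping interval, while in control subcluster 5 (2708 CPM) had more than neutrophil-like cells. From there down through subclusters 2, 4, 7, 1 and 3 no neighbours overlapped. In the treated pool subcluster 4 (788 CPM, 750 to 828) instead lay above subcluster 2 (570 CPM, 554 to 586). Dendritic-like cells had 55.1 CPM (46.9 to 64.3) in control and 24.7 CPM (18.4 to 32.6) with telmisartan. T-like cells, which are not a usual source of activin A, had nearly the same 59.4 CPM (38.8 to 87.0) and 26.5 CPM (13.7 to 46.3). The summed dendritic-like level was therefore no higher than that of T-like cells in either pool, and its log2 ratio of -1.15 (-1.64 to -0.69) is not read as a change of the class. Dendritic-like subcluster 2 did lie above T-like cells in control, at 113 CPM (92.3 to 137), and had 54.8 CPM (36.1 to 79.8) with telmisartan.

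An *Inhba* UMI was seen in 39.2% of control and 37.3% of telmisartan-treated macrophage-like cells. T-like cells, at median depths of 3912 and 3001 UMIs, showed one in 13.9% and 8.85%. After thinning, with 45 control and 72 treated macrophage-like cells too shallow to use, the macrophage shares were 22.4% (21.1 to 23.7) and 19.8% (18.6 to 21.1). T-like shares after thinning were 4.41% (0.919 to 12.4) of 68 cells and 1.94% (0.236 to 6.84) of 103 cells, with 4 and 10 cells too shallow. A macrophage-like cell held up to 268 *Inhba* UMIs in control and up to 175 with telmisartan.

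*Inhba* lies at chr13:16011851-16031621 on the plus strand of GRCm38 (GENCODE M21). The stretch of 250 bases before its start, chr13:16011601-16011850, plus strand, is shown because this ligand gene had both a high level in some macrophage subclusters and opposite differences among them. It is given as RefSeq lists it for GRCm38.p6, read 5′ to 3′, and overlaps no annotated exon. Capitals mark AGAC, the SMAD box, searched as AGAC and as GTCT for the other strand.
*Inhba*: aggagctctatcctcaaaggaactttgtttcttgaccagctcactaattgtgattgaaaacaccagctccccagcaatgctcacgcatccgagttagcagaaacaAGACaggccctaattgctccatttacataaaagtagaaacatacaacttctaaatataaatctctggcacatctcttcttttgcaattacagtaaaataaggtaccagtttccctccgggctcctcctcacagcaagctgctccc
Such a match is common: 82.9% of the 32817 promoter windows of this length hold at least 1. It describes letters in the window, and binding or an effect on the levels was not tested. Of the 10 genes, 7 had a promoter entry.

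Ligand and release genes were read from a list of 14, with *Tgfb1*, described above, among them. Of these, 8 had at least 100 UMIs in macrophage-like cells, and all 8 were higher with telmisartan, with a median log2 ratio of 0.33 beside -0.04 for all counted genes. *Lrrc32*, which encodes GARP, a docking protein for latent TGF-β, was the 1 gene past 1.5-fold, at 0.813 CPM in control and 2.50 CPM with telmisartan (log2 ratio 1.62, 0.99 to 2.28). *Tgfb3* had 23.7 and 33.2 CPM (0.49, 0.35 to 0.62). *Thbs1*, whose product thrombospondin 1 can activate latent TGF-β, had 1649 and 2013 CPM (0.29, 0.27 to 0.30), although it was lower when the subclusters had the same weight in both groups. These directions are relative to the median gene: with no scaling for depth that median moved by -0.41, and 2 of the 8 were then higher and 6 lower in UMIs per cell, yet 8 of 8 remained above the median gene. On the mean of ln(1 + UMIs per 10000) the median moved by -0.12 and 8 of 8 were higher.

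For activins and their inhibitors 3 of 6 genes could be counted. Beside *Inhba*, *Fst*, which encodes follistatin, an activin-binding inhibitor, was at least 1.5-fold lower, at 2.65 CPM and 1.44 CPM from 101 and 41 UMIs (log2 ratio -0.88, -1.44 to -0.34), and without subcluster 2 both were higher. *Fstl1* was past 1.5-fold in the other direction, with 1.52 and 2.57 CPM (0.76, 0.24 to 1.28). Among 11 BMP and GDF ligands and inhibitors, of which *Nog* was not analysed here, 3 had enough UMIs, and 2 were higher and 1 lower. *Gdf15*, a stress-induced divergent member of the TGF-β family, rose most among the list genes other than the 10 that had at least 200 UMIs, from 5.95 to 20.1 CPM (1.76, 1.53 to 1.98). It was higher in 7 of 7 subclusters, with an interval above 0 in 5. Of all counted genes 5.36% were higher in each of the 7. *Bambi*, a decoy receptor, had 11.7 and 16.9 CPM (0.53, 0.34 to 0.72). *Twsg1*, which encodes a BMP-binding protein, was lower, at 9.99 and 8.10 CPM (-0.30, -0.55 to -0.06).

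Receptors showed smaller differences in macrophages. *Tgfbr1* encodes the type I receptor kinase for TGF-β. Its level in macrophage-like cells was 97.3 CPM (94.2 to 100) in control and 85.8 CPM (82.4 to 89.2) with telmisartan, a log2 ratio of -0.18 (-0.26 to -0.11). In dendritic-like cells it was 76.3 CPM (66.6 to 87.0) and 46.5 CPM (37.6 to 56.9), a log2 ratio of -0.71 (-1.08 to -0.36). The dendritic-like difference was past 1.5-fold and was carried by subclusters 1 (53.6 and 27.8 CPM) and 2 (138 and 75.1 CPM). T-like cells had 43.4 and 39.8 CPM from 19 and 18 UMIs, and neutrophil-like cells 62.1 and 148 CPM from 6 and 7 UMIs, both with intervals that held 0.

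Macrophage subclusters differed in the direction of *Tgfbr1*. In subcluster 4 it went from 165 to 78.1 CPM (log2 ratio -1.07, -1.41 to -0.74), and in proliferating subcluster 6 from 115 to 87.6 CPM (-0.39, -0.58 to -0.20). Subcluster 2 went from 65.7 to 75.04 CPM (0.19, 0.02 to 0.36). The remaining 4 subclusters had intervals that held 0. Levels over both groups were highest in dendritic-like subcluster 2 (116 CPM, 99.0 to 135), whose interval overlapped those of macrophage subclusters 1, 4, 6 and 3, and lowest in dendritic-like subcluster 5 (17.0 CPM, 4.64 to 43.6). It was highest in neither pool alone: in control macrophage subcluster 4 (165 CPM) had more than its 138 CPM, and in the treated pool macrophage subcluster 3 (103 CPM) had more than its 75.1 CPM. Each neighbouring pair in this order had overlapping intervals.

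*Tgfbr2* encodes the type II receptor that binds TGF-β first. Its level was 53.6 CPM (51.3 to 56.0) in control and 51.0 CPM (48.4 to 53.7) in telmisartan-treated macrophage-like cells, and the log2 ratio of -0.07 (-0.17 to 0.03) did not leave counting error. In subcluster 2 it went from 27.5 to 44.1 CPM (0.68, 0.44 to 0.93), whereas in subcluster 3 it went from 94.6 to 74.9 CPM (-0.34, -0.50 to -0.17). The sum over macrophages therefore joined opposite differences. Dendritic-like cells had 28.4 and 35.6 CPM (0.33, -0.15 to 0.80), T-like cells 153 and 128 CPM (-0.26, -0.79 to 0.27), and neutrophil-like cells 31.1 and 21.2 CPM from 3 and 1 UMIs (-0.55, -6.27 to 3.08).

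The order of *Tgfbr2* placed T cells first. T-like subclusters 2, 1 and 3 had 175, 158 and 108 CPM, with overlapping intervals. Macrophage subcluster 3 came next at 85.2 CPM (80.5 to 90), overlapping T-like subcluster 3, and lay apart from macrophage subcluster 6 (58.4 CPM), which in turn lay apart from subcluster 1 (49.5 CPM), although in the treated pool subclusters 6 and 1 overlapped (53.1 and 52.1 CPM). Mature dendritic-like subcluster 3 was lowest, at 6.39 CPM (1.74 to 16.4) from 4 UMIs.

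In a list of 13 type I, type II and accessory receptors, 9 had enough UMIs in macrophage-like cells, of which 2 were higher and 7 lower with telmisartan, and 0 reached 1.5-fold in either direction. The median log2 ratio of these 9 was -0.18, beside -0.04 for all counted genes. Of all counted genes 4.76% were at least 1.5-fold higher and 2.2% at least 1.5-fold lower. *Acvrl1*, which encodes the type I receptor ALK1 for BMP9, was higher, at 37.9 and 51.8 CPM (0.45, 0.35 to 0.56). It was so in 7 of 7 subclusters, with an interval above 0 in 4. *Acvr1*, which encodes the type I receptor ALK2 for BMPs, had 24.5 and 19.2 CPM (-0.35, -0.50 to -0.19). *Eng*, the coreceptor endoglin, had 4.72 and 3.80 CPM, with an interval that held 0 (-0.67 to 0.04). Without scaling for depth 8 of the 9 were lower, and relative to the shifted median the split was again 2 and 7. With the subclusters given the same weight in both groups *Tgfbr2* changed side, giving 3 and 6.

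Of 6 genes of signal-carrying SMADs, the inhibitory ones being listed apart, 5 could be counted and 0 reached 1.5-fold. *Smad2*, a signal carrier of TGF-β and activin, went from 36.1 to 28.1 CPM (log2 ratio -0.36, -0.49 to -0.23), the largest fall among the list genes with at least 200 UMIs. *Smad3* went the other way, from 8.37 to 11.6 CPM (0.47, 0.24 to 0.70). *Smad4* and *Smad5* had log2 ratios of 0.01 each and were lower when the subclusters had the same weight in both groups.

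Inhibitors inside the cell were led by *Skil* among the 10 genes. *Skil* encodes SnoN, which holds SMAD complexes in check at target genes. Its level was 135 CPM (131 to 139) in control and 201 CPM (195 to 206) in telmisartan-treated macrophage-like cells, a log2 ratio of 0.57 (0.52 to 0.62). In dendritic-like cells the level was 151 CPM (137 to 165) and 253 CPM (231 to 276), a log2 ratio of 0.75 (0.56 to 0.94). T-like cells had 123 CPM (92.7 to 161) and 230 CPM (188 to 278), with a log2 ratio of 0.90 (0.41 to 1.40). The difference thus had 1 direction in these 3 classes. Neutrophil-like cells had 342 and 254 CPM from 33 and 12 UMIs, and that interval held 0 (-1.52 to 0.56).

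*Skil* was higher with telmisartan in 7 of 7 macrophage subclusters, each with an interval above 0. A higher level in each of the 7, whatever the interval, was found for 5.36% of the 11073 counted genes. The smallest difference was in subcluster 1, 128 and 168 CPM (log2 ratio 0.40, 0.27 to 0.53), and the largest in subcluster 5, 130 and 245 CPM (0.92, 0.67 to 1.18). No other gene of the 10 had 1 direction throughout: for a fall in each of the 7 subclusters, which 5.4% of all counted genes showed, the number was 0. Among T-like cells the granzyme subcluster 1 had the widest difference, 72.3 and 254 CPM from 14 and 60 UMIs (1.81, 0.96 to 2.77).

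In dendritic-like cells 8 of the 10 genes had at least 100 UMIs. Of these, 1 (*Skil*) was at least 1.5-fold higher, where 3.69% of 5798 counted genes were, and 2 (*Inhba* and *Tgfbr1*) were at least 1.5-fold lower, where 3.52% were. The summed level of *Inhba* there did not exceed that in T-like cells, as given above. *Id1* and *Id3*, with 20 and 15 UMIs in dendritic-like cells, were too rare to be counted.

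Cells with a *Skil* UMI made up 57.8% of control and 59.7% of telmisartan-treated macrophage-like cells, a narrow gap at unequal depth. After thinning the shares were 13.3% (12.2 to 14.4) and 18.5% (17.3 to 19.8). No class here should lack *Skil*: T-like cells showed 33.3% and 52.2% before thinning. Over both groups *Skil* was highest in mature dendritic-like subcluster 3 (326 CPM, 283 to 374), followed with overlapping intervals by neutrophil-like cells (313 CPM) and macrophage subcluster 7 (268 CPM, 240 to 298), although in control neutrophil-like cells came first (342 CPM), and lowest in dendritic-like subcluster 4 (101 CPM, 78.4 to 129), which held for control (59.6 CPM) and not for the treated pool (166 CPM).

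*Smad7* encodes the inhibitory SMAD that brings the TGF-β receptor to degradation. Macrophage-like cells had 42.4 CPM (40.4 to 44.5) in control and 37.9 CPM (35.6 to 40.2) with telmisartan, a log2 ratio of -0.16 (-0.28 to -0.05). T-like cells had 146 CPM (113 to 187) and 208 CPM (168 to 254), a log2 ratio of 0.51 (0.03 to 0.99). The small fall in macrophages and the rise in T cells were not compared by a test. Dendritic-like cells had 56.4 and 54.4 CPM (-0.05, -0.41 to 0.30), and neutrophil-like cells 145 and 106 CPM from 14 and 5 UMIs. Of the 7 macrophage subclusters, 2 had an interval below 0, subclusters 2 (39.7 and 29.4 CPM) and 6 (33.0 and 21.6 CPM), and the other 5 had intervals that held 0. T-like subclusters led the order of *Smad7*, at 230, 200 and 134 CPM for subclusters 2, 1 and 3, with overlapping intervals, and proliferating macrophage subcluster 6 was lowest at 27.9 CPM (24.7 to 31.5). Every neighbouring pair overlapped.

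The list of inhibitors inside the cell held 11 genes, all with enough UMIs in macrophage-like cells. With telmisartan 8 were higher and 3 lower. At least 1.5-fold higher were 3, and 0 were at least 1.5-fold lower, beside 4.76% and 2.2% of the 11073 counted genes. Their log2 ratios had a median of 0.19, beside -0.04 for all counted genes. The 3 were *Tgif2* (0.708 and 2.85 CPM, 2.01), *Smad6* (2.15 and 4.82 CPM, 1.17) and *Tgif1* (161 and 316 CPM, 0.97, 0.93 to 1.02). *Smad6* encodes the inhibitory SMAD of the BMP branch, and *Tgif1* and *Tgif2* encode homeodomain corepressors of SMAD2 and SMAD3. *Tgif1* had intervals above 0 in 7 of 7 subclusters. *Ski*, the closest relative of *Skil*, was higher in 7 of 7 subclusters but by less, 177 and 203 CPM over all macrophages (0.19, 0.14 to 0.24). Its interval lay above 0 in 4 of these subclusters. Without scaling for depth 5 of the 11 were higher and 6 lower, and relative to the shifted median the split was again 8 and 3.

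Targets of the pathway come last, beginning with the ID family. *Id3* is at chr4:136143497-136145755 on the plus strand (GRCm38). Its level in macrophage-like cells was 3.04 CPM (2.51 to 3.65) in control, from 116 UMIs, and 14.7 CPM (13.3 to 16.2) with telmisartan, from 418 UMIs. The log2 ratio was 2.27 (1.97 to 2.58), which ranked 5 of 11073 counted genes, and since this comparison entered the choice of the genes, nothing further is read from that rank. In dendritic-like cells *Id3* had 3.08 CPM (1.41 to 5.84) and 2.97 CPM (1.09 to 6.46), from 9 and 6 UMIs. The control macrophage level thus lay within the interval of dendritic-like cells, while the telmisartan-treated level lay above it. T-like cells held 1 and 2 *Id3* UMIs (log2 ratio 0.95, -3.31 to 6.83), and neutrophil-like cells 1 and 0, where 3 UMIs would be 63.5 CPM in the treated pool.

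The rise of *Id3* was seen in 6 of 7 subclusters. In subcluster 4 the level went from 4.54 CPM, 4 UMIs, to 48.6 CPM, 99 UMIs (log2 ratio 3.42, 2.02 to 5.33). Subcluster 5 went from 11.5 to 51.4 CPM (2.16, 1.37 to 3.05), and proliferating subcluster 6 from 1.51 to 9.71 CPM (2.69, 1.58 to 3.99). Subclusters 1, 2 and 3 showed smaller rises. Subcluster 4 was the shallowest of the 7 and subcluster 6 the deepest (median 13197 UMIs), and a part of depth in these differences was not tested. Subcluster 1 went from 2.34 to 6.25 CPM (1.42, 0.60 to 2.22), subcluster 2 from 3.55 to 9.25 CPM (1.38, 0.74 to 2.06) and subcluster 3 from 2.62 to 8.56 CPM (1.71, 0.96 to 2.52). Subcluster 7 had 11.98 and 11.8 CPM from 7 and 8 UMIs (-0.02, -1.68 to 1.68), too few to tell it from subclusters 1 and 2, whose ratios lie inside its interval.

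Subclusters 4 and 5, both shallow, weighed more in the treated pool. They carried 3.45% and 12.9% of the *Id3* UMIs of control macrophages and 23.7% and 25.6% of those of telmisartan-treated ones. The median depth of subcluster 5 was 0.464 of that of its own groups. With subcluster 4 left out the log2 ratio of the remaining macrophages was 2.01, and with both left out it was 1.69, alternatives added after the values had been seen. In macrophage-like cells of at least 2000 UMIs, added likewise, it was 2.23. The ratio was thus smaller without the shallow subclusters and remained above 1.5-fold.

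Few cells carried the transcript. An *Id3* UMI was found in 84 of 4049 control macrophage-like cells (2.07%, 1.66 to 2.56) and 261 of 4004 telmisartan-treated ones (6.52%, 5.77 to 7.33). Dendritic-like cells, at median depths of 7620 and 6360 UMIs, showed one in 1.37% (0.445 to 3.16) and 2.05% (0.755 to 4.40). T-like cells, at 3912 and 3001 UMIs, showed one in 1.39% and 1.77%, although some T cells are known to express *Id3*. The interval of control macrophages overlapped those of control dendritic-like cells, so that share is not told apart from background. The interval of treated macrophages lay above that of treated dendritic-like cells and overlapped that of treated T-like cells (0.215 to 6.25). After thinning, the shares were 0.400% (0.229 to 0.648) of 4004 and 1.91% (1.503 to 2.39) of 3932 macrophage-like cells. Thinned dendritic-like cells held 0 of 365 and 0 of 289, which allows up to 0.822% and 1.04% of cells with a UMI when 0 is read as at most 3 cells, and up to 1.01% and 1.27% by the exact interval.

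Most *Id3* carriers held a single UMI. In the control pool 64 cells had 1, 12 had 2 and 8 had 3 or more, with 6 as the most. In the treated pool 188 cells had 1, 35 had 2 and 38 had 3 or more, with 12 as the most. The 10 cells with the most UMIs held 27.6% of all *Id3* UMIs in control and 15.6% with telmisartan, so the treated total did not rest on a few cells.

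Across cell types *Id3* was highest in macrophage subclusters 5 (36.0 CPM, 29.9 to 43.0) and 4 (35.3 CPM, 28.8 to 42.8), which overlapped. The next, subcluster 7 (11.9 CPM, 6.66 to 19.6), lay below both. The place of subcluster 4 came from the treated pool alone, since in control its 4.54 CPM was below the 11.98 CPM of subcluster 7 and the 11.5 CPM of subcluster 5. All further neighbours overlapped down to dendritic-like subclusters 3, 4 and 5, where 0 UMIs were counted.

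*Id1* is at chr2:152736251-152737410 on the plus strand. Macrophage-like cells had 5.53 CPM (4.81 to 6.33) in control and 7.71 CPM (6.72 to 8.80) with telmisartan, from 211 and 219 UMIs, a log2 ratio of 0.48 (0.20 to 0.76). Of the 7 subclusters 5 were higher and 2 lower, and 0 had an interval that left out 0. Only in the sum did the interval leave out 0. The log2 ratio was 0.56 with the subclusters given the same weight in both groups. It shrank to 0.26 without subcluster 4 and to 0.13 without subclusters 4 and 5, added after the values had been seen. It was instead past 1.5-fold after thinning (0.87) and with the mean of UMIs per 10000 of each cell (0.82). After thinning only 18 control and 33 treated macrophage-like cells held an *Id1* UMI. Subcluster 4 had 12.5 and 24.1 CPM (0.95, -0.02 to 2.04). Dendritic-like cells had 4.11 and 3.96 CPM from 12 and 8 UMIs, and neutrophil-like cells 62.1 and 42.3 CPM from 6 and 2 UMIs (log2 ratio -0.55, -3.89 to 1.93).

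In T-like cells *Id1* had 0 UMIs in both pools, where 3 UMIs would be 6.85 CPM in control and 6.63 CPM with telmisartan. The share of macrophage-like cells with an *Id1* UMI was 4.10% and 4.22%, beside 0 of 72 and 0 of 113 T-like cells, which allows up to 4.17% and 2.65% when 0 is read as at most 3 cells, and up to 4.99% and 3.21% by the exact interval. Thinned, the macrophage shares were 0.450% (0.267 to 0.710) and 0.839% (0.578 to 1.18). *Id1* was highest in neutrophil-like cells (55.6 CPM, 24.0 to 110, from 8 UMIs), overlapping macrophage subcluster 4 (20.6 CPM, 15.7 to 26.5), which overlapped subcluster 5 (12.7 CPM, 9.19 to 17.1). Below subcluster 5 came subcluster 1 (7.45 CPM), the 1 pair of neighbours in the order without overlap.

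The share of cells with *Id1* was larger among cells with *Id3* than among cells without it, but from few cells and within counting error. Among thinned telmisartan-treated macrophage-like cells, 3 of 75 cells with *Id3* also had *Id1* (interval 0.833% to 11.2%), against 30 of 3857 cells without *Id3* (0.778%, 0.525 to 1.109). In the control pool 1 of 16 cells with *Id3* had *Id1*, against 17 of 3988 without. At their own depth 18 of 261 treated cells with *Id3* had *Id1* (6.90%, 4.14 to 10.7), against 151 of 3743 without (4.03%, 3.43 to 4.71), and in control 4 of 84 against 162 of 3965. At these counts the intervals of the shares overlapped in both pools at either depth. Cells with and without *Id3* were not matched for depth in the comparison at their own depth, and its part was not tested.

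*Id2* is at chr12:25093799-25097140 on the minus strand. Its level hardly differed between the pools in macrophage-like cells, 649 CPM (641 to 657) in control and 662 CPM (653 to 672) with telmisartan, a log2 ratio of 0.03 (0.00 to 0.06). The sign of this ratio changed when the subclusters had the same weight in both groups. In dendritic-like cells the level was 851 and 776 CPM (-0.13, -0.23 to -0.04), in T-like cells 882 and 990 CPM (0.17, -0.03 to 0.37), and in neutrophil-like cells 280 and 614 CPM from 27 and 29 UMIs (1.13, 0.33 to 1.95). Within dendritic-like cells it went from 827 to 577 CPM in subcluster 1 and from 876 to 513 CPM in subcluster 4, and from 1370 to 1798 CPM in mature subcluster 3, so that sum too joined opposite directions. The macrophage sum near 0 again joined opposite subclusters. In subcluster 2 *Id2* went from 1180 to 837 CPM (-0.49, -0.54 to -0.45) and in subcluster 1 from 568 to 466 CPM (-0.29, -0.36 to -0.21). It went from 423 to 576 CPM in subcluster 3 (0.45, 0.38 to 0.51) and from 345 to 483 CPM in subcluster 6 (0.49, 0.39 to 0.58). The levels in subclusters 1, 2, 3 and 6 were thus closer to each other in the treated pool than in control.

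Dendritic cells led the order of *Id2*, in the mature subcluster 3 (1539 CPM, 1444 to 1640) and the cDC1-type subcluster 5 (1500 CPM, 1347 to 1665), which overlapped and stood in the reverse order in control (1370 and 1660 CPM). T-like subclusters 2 and 1 (1139 and 1110 CPM) and macrophage subclusters 5 and 2 (1024 and 1002 CPM) followed with overlapping intervals, and lay apart from dendritic-like subcluster 4 (734 CPM). The lowest were macrophage subcluster 6 (406 CPM) and neutrophil-like cells (389 CPM), whereas in the treated pool macrophage subcluster 1 was lowest (466 CPM), overlapping subcluster 6 (483 CPM). An *Id2* UMI was seen in 78.6% and 75.8% of macrophage-like cells, and in 29.2% and 37.5% of neutrophil-like cells at median depths of 1730 and 1796 UMIs. After thinning the macrophage shares were 37.5% (36.0 to 39.0) and 39.9% (38.4 to 41.5), the reverse order of the unthinned shares, so no order is read from the shares.

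**Figure D2:**
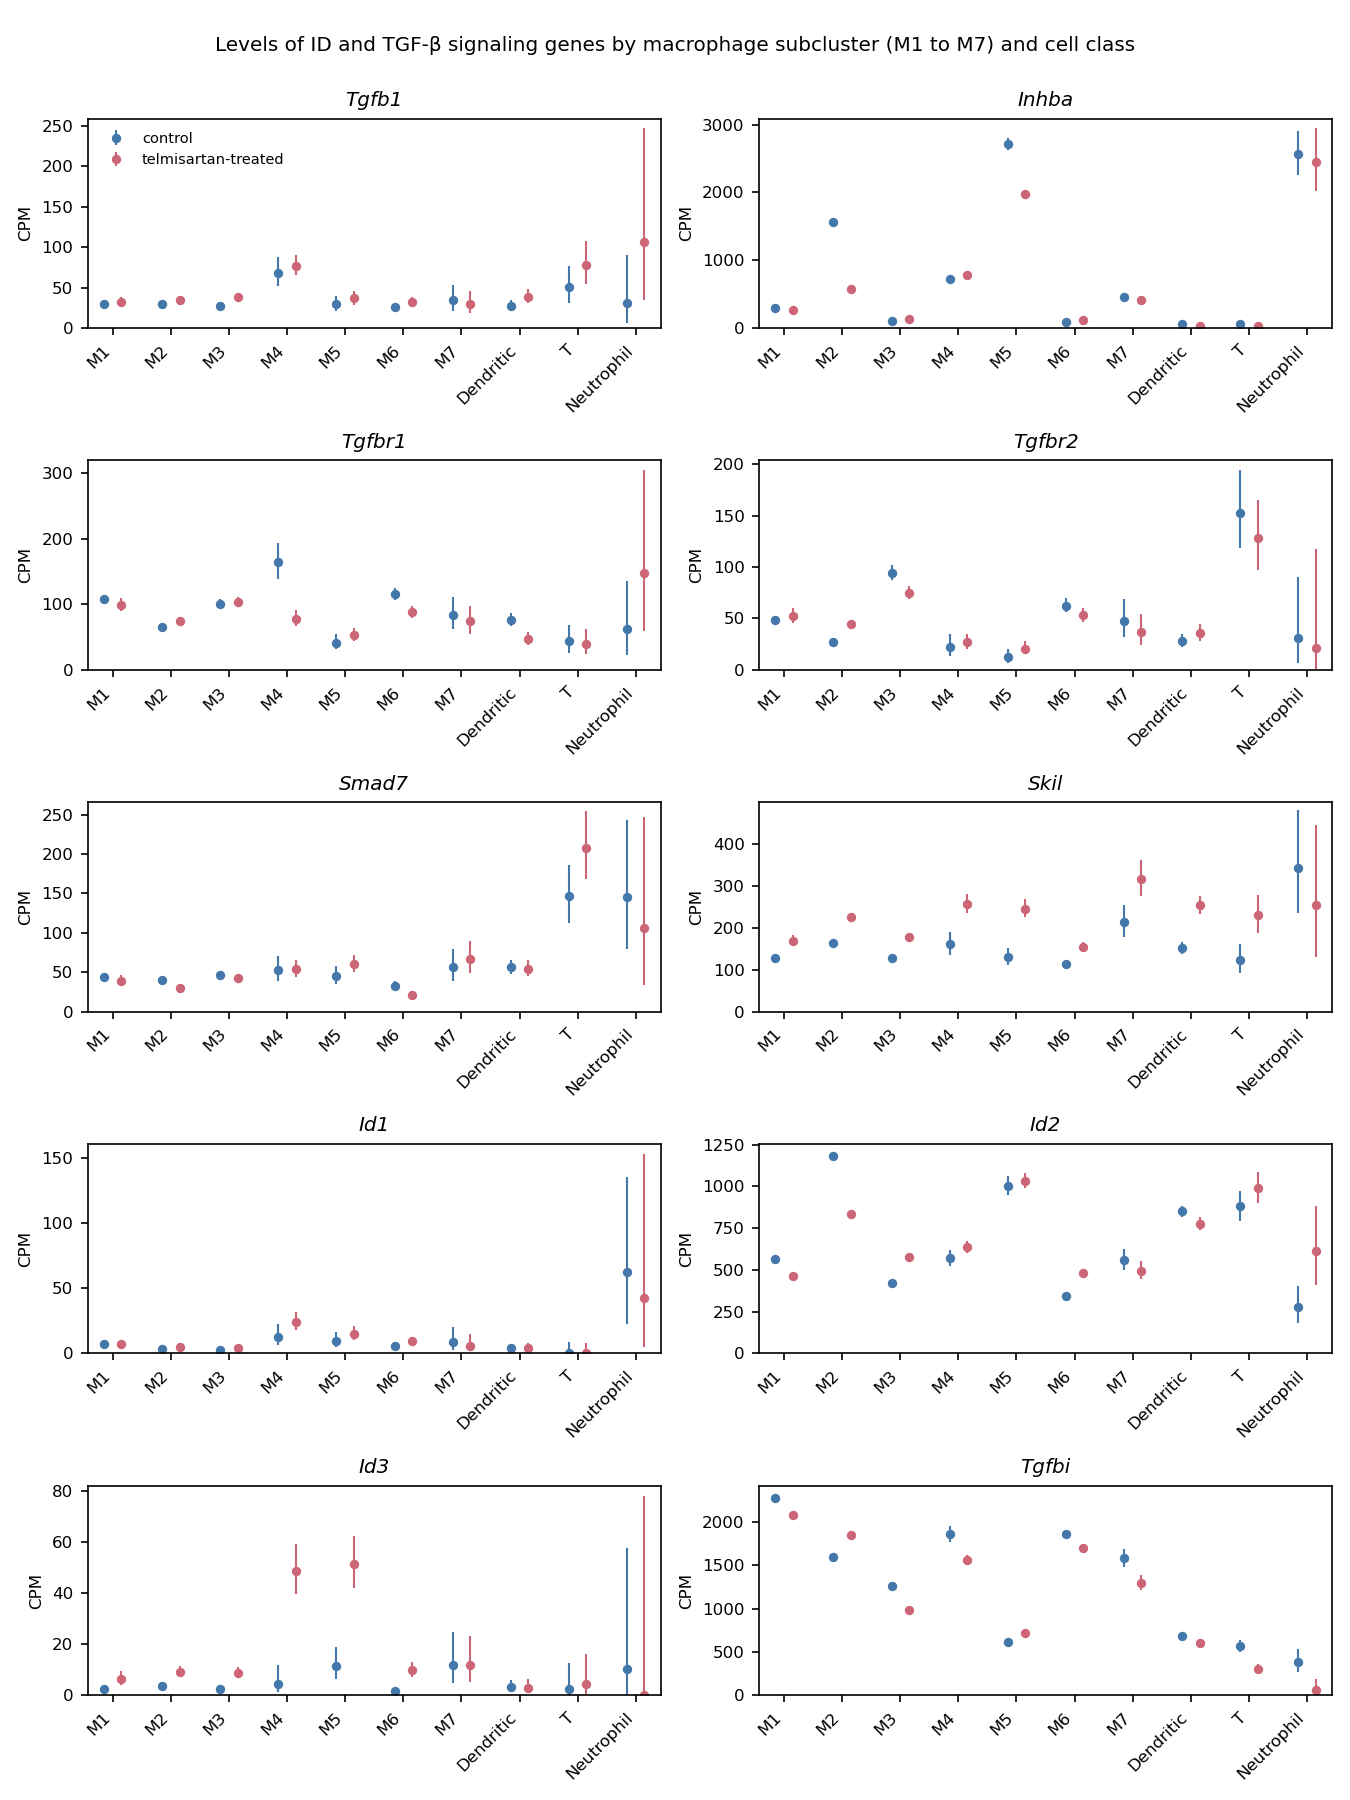
Level in CPM (vertical axis) of each of the 10 genes in macrophage subclusters M1 to M7 and in dendritic-like, T-like and neutrophil-like cells, for control and telmisartan-treated cells, with exact 95% Poisson intervals as bars and 1 pool per group. *Id3* with telmisartan reaches 48.6 CPM in subcluster 4 and 51.4 CPM in subcluster 5, *Inhba* is high in neutrophil-like cells and subcluster 5, and *Tgfbr2* and *Smad7* are high in T-like cells.

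*Tgfbi*, a secreted matrix protein gene named for its induction by TGF-β, is at chr13:56609523-56639562 on the plus strand. Macrophage-like cells had 1797 CPM (1784 to 1811) in control and 1529 CPM (1515 to 1544) with telmisartan, a log2 ratio of -0.23 (-0.25 to -0.22). All 7 subcluster intervals left out 0, with 5 below it and 2 above it. The lowest ratio was that of subcluster 3, 1258 and 982 CPM (-0.36, -0.40 to -0.31), and the highest that of subcluster 2, 1594 and 1854 CPM (0.22, 0.18 to 0.25). Dendritic-like cells had 684 and 605 CPM (-0.18, -0.28 to -0.07). In T-like cells the values were 567 and 300 CPM (-0.92, -1.23 to -0.61), and 231 of the 248 control UMIs lay in the *Foxp3* subcluster 3. That subcluster held 26 of 72 control and 22 of 113 treated T-like cells and had 1114 and 756 CPM (-0.56, -0.90 to -0.22), so the fall of the class also holds its smaller share. Neutrophil-like cells had 383 and 63.5 CPM from 37 and 3 UMIs (-2.59, -4.94 to -0.93).

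The order of *Tgfbi* interleaved the classes. Macrophage subcluster 1 was highest (2238 CPM, 2216 to 2259), apart from subcluster 6 (1789 CPM), which was apart from subclusters 2 (1729 CPM) and 4 (1650 CPM). Within the pools this order changed: in control subclusters 4 and 6 (1858 CPM each) lay above subcluster 2 (1594 CPM), and in the treated pool subcluster 2 (1854 CPM) lay above subcluster 6 (1703 CPM). Dendritic-like subcluster 2 (1339 CPM) stood above macrophage subclusters 3 (1126 CPM) and 5 (681 CPM). Mature dendritic-like subcluster 3 was lowest at 63.9 CPM (45.7 to 87.1), overlapping T-like subclusters 1 (79.1 CPM) and 2 (91.9 CPM). T-like subcluster 3 had 967 CPM (867 to 1075), above macrophage subcluster 5. The macrophage and monocyte markers had a summed level of 5951 CPM in control and 3919 CPM in treated T-like cells, with *Lyz2* the most abundant, beside 18001 and 18158 CPM in macrophage-like cells, and their part in the *Tgfbi* level of T-like cells was not tested. Cells with a *Tgfbi* UMI made up 94.0% and 90.1% of macrophage-like and 36.1% and 26.5% of T-like cells, and after thinning 71.4% and 64.8% of macrophage-like and 20.6% and 7.77% of T-like cells.

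The list of known targets held 6 genes, *Tgfbi* among them, and 4 could be counted in macrophage-like cells. *Klf10*, an immediate early gene of TGF-β, had 28.4 CPM in control and 53.7 CPM with telmisartan (log2 ratio 0.92, 0.81 to 1.03), with intervals above 0 in 7 of 7 subclusters. *Klf10* was past 1.5-fold, while *Tgfbi* and *Sox4* (31.1 and 29.4 CPM) were lower by less. Among partners of ID proteins, *Tcf4*, which encodes the E protein E2-2, had 112 and 142 CPM (0.33, 0.27 to 0.40). *Tcf3* had 17.3 and 16.2 CPM, and *Tcf12* 68.8 and 63.7 CPM, with log2 ratios of -0.09 and -0.11.

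Over all lists, 73 genes were measured and 49 had at least 100 UMIs in macrophage-like cells, of which 9 were at least 1.5-fold higher and 1 at least 1.5-fold lower, beside 4.76% and 2.2% of all counted genes. Without the 10 genes described here the numbers were 39, 8 and 1, and the median log2 ratio was 0.14, beside -0.04 for all counted genes. The genes past 1.5-fold were spread over TGF-β ligands and their release, activins and their inhibitors, BMP and GDF ligands, inhibitors inside the cell and targets, and 0 were in the lists of receptors or signal-carrying SMADs. The 3 largest rises among list genes with at least 200 UMIs other than the 10 were *Gdf15*, *Smad6* and *Tgif1*, and the 3 largest falls *Smad2*, *Acvr1* and *Eng*. The remaining list genes named here were picked after their values were seen.

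Gene patterns were then compared over 21 units, which were macrophage and dendritic-like subclusters and the T-like class split by group and kept at 50 cells or more, by Pearson correlation of log2(CPM + 5) among 11395 genes. These units share 1 capture, and they differ in depth. The genes most like *Id3* were *Gm43660* (r = 0.86), *Bcl2l11* (r = 0.83) and *Zbtb21* (r = 0.83). For *Id1* they were *Mefv* (r = 0.88), *Itga5* and *Lifr* (r = 0.85 each), and for *Id2* *Mir155hg* (r = 0.87), *Tes* (r = 0.77) and *Arfgef1* (r = 0.76). *Inhba* was closest to *Grina*, *Slpi* (r = 0.95 each) and *Gm48444* (r = 0.94), and *Tgfb1* to *Chd2* (r = 0.89), *Gm26561* and *Gm42418* (r = 0.85 each). *Tgfbi* was closest to *Pilra* (r = 0.97), the macrophage receptor gene *Csf1r* and *Clec4a2* (r = 0.95 each). *Tgfbr1* was closest to *Clec12a* (r = 0.85), *Map7d1* (r = 0.84) and *Luzp1* (r = 0.82), and *Tgfbr2* to *Prps2*, *Suclg2* and *2900026A02Rik* (r = 0.88 each). *Smad7* was closest to *4932438A13Rik* (r = 0.89), *Itpr2* and *Ikzf2* (r = 0.87 each), and *Skil* to *Gadd45b* (r = 0.81), *Nfkbie* (r = 0.80) and *Csrnp1* (r = 0.79). Among the 10 genes themselves the highest correlation was that of *Id1* with *Id3* (r = 0.71) and the lowest that of *Id2* with *Tgfbi* (r = -0.65).

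Markers of other cells were summed in macrophage-like cells, in control and telmisartan-treated pools in turn. Of 6 fibroblast genes 6 were detected, at 8.21 and 14.3 CPM, with *Col1a1* most abundant (102 and 137 UMIs). Of 5 epithelial or tumor genes 4 were detected, at 1.10 and 0.739 CPM, with *Epcam* most abundant, and *Cldn4* was not analysed here. Endothelial genes (5 of 5) summed to 3.23 and 3.98 CPM, led by *Cdh5*. The fibroblast sum was higher in the treated pool, although live CD45+ cells had been sorted, and its part in the levels of *Id3* and *Id1* was not tested. Among leukocytes, T cell genes (8 of 8) summed to 12.3 and 14.4 CPM, led by *Skap1*, neutrophil genes (6 of 6) to 25.1 and 30.8 CPM, led by *Csf3r*, and dendritic genes (11 of 11) to 45.1 and 43.1 CPM, led by *Cadm1*. NK genes (5 of 5) summed to 0.892 and 1.09 CPM, plasmacytoid dendritic genes (3 of 4, *Klk1* at 0) to 1.23 and 1.16 CPM, and mast cell genes (4 of 4) to 0.210 and 0.141 CPM. The platelet list was detected with 3 of 5 genes at 724 and 782 CPM, nearly all from *Pf4*, which these macrophages themselves expressed, and *Gp9* and *Gp1bb* were not analysed here. Lists for states and subtypes gave 446 and 458 CPM for proliferation (led by *Top2a*), 81.9 and 80.4 for cDC1 (*Wdfy4*), 1409 and 1324 for cDC2 (*Itgam*, also a macrophage gene), 59.5 and 49.4 for mature dendritic (*Socs2*), 4.20 and 3.98 for CD8 T (*Nkg7*) and 34.0 and 32.7 for CD4 T genes (*Ctla4*). The part of these cells in the levels of the 10 genes was not tested.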

How the data were processed

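Single cells of both pools were profiled with BD Rhapsody whole transcriptome libraries. The authors made the deposited UMI counts and Sample Tag read counts with the BD Rhapsody WTA Analysis Pipeline 1.11 on GRCm38 with GENCODE M19, intronic reads included. From 20726 putative cells with 27031 genes, a cell was assigned to a group when 1 tag held at least 75% of at least 10 tag reads; 1580 cells split between tags and 186 cells with fewer reads were left out. Limits were 150 to 5000 genes and at most 20% mitochondrial UMIs. Among cells within these limits, those with 2 tags made up 8.67%, so 9.51% were taken as same-tag doublets. The 942 cells of highest scanpy 1.11.5 doublet score were removed, as its automatic threshold called 0.

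Seurat 5.3.0 (R 4.3.3) clustered 8969 cells (2000 variable genes without the pathway lists, 30 components, resolution 0.5; macrophage subclusters 0.4). A T, dendritic or neutrophil cluster had at least 3 markers at 4 times their CPM elsewhere, and the remaining clusters, with at least 3 macrophage markers in at least 10% of cells, were called macrophage-like. Sums, exact Poisson, Clopper-Pearson and conditional binomial intervals used Python 3.11.15, numpy 2.4.6, scipy 1.17.1 and pandas 2.3.3, and figures matplotlib 3.10.9. A gene was called at 1.5-fold with at least 100 UMIs. With 1 pool per group no difference was tested and no p-value is given. Coordinates are from GENCODE M21.

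The genes and lists were chosen with earlier results of these data known. Named were the 10 genes, the 3 largest rises and 3 largest falls among list genes with at least 200 UMIs, list genes that accompany a member, and the 3 genes most like each member. Alternatives changed tag share, gene and mitochondrial limits, doublet removal, resolution, scaling (including TMM factors of edgeR 4.0.16), thinning, subcluster weights, fold and UMI minimum.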

Additional observations from a re-analysis of the deposited data

Results flagged for a closer look

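Macrophage-like cells were compared with dendritic-like cells, and macrophage subclusters with each other. Opposite directions of the log2 ratio of telmisartan-treated to control CPM, each with a 95% counting interval off 0, drew attention to 6 pairs of values. For *Id2* the ratio was 0.028 in macrophage-like cells and -0.13 in dendritic-like cells. In each class the subclusters themselves moved in both directions. The macrophage ratio changed sign under 4 of 21 alternatives. Between macrophage subclusters, *Id2* had 0.49 in subcluster 6 and -0.49 in subcluster 2, and *Inhba* had 0.47 in subcluster 6 and -1.46 in subcluster 2. *Tgfbr1* had 0.19 in subcluster 2 and -1.07 in subcluster 4. *Tgfbr2* had 0.68 in subcluster 2 and -0.34 in subcluster 3, and *Tgfbi* had 0.22 in subcluster 2 and -0.36 in subcluster 3. With 1 pool per group, whether these pairs differ beyond the variation between mice was not tested.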

How the results depend on the processing

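The *Id3* log2 ratio in macrophage-like cells stayed positive under all 21 alternatives, between 1.69 and 2.55. It was 1.91 with no quality limits and all classes together, 1.87 in UMIs per cell with no scaling, 1.78 without the cluster of lowest depth and 1.69 without subclusters 4 and 5. That cluster held 85.8% of the cells of subcluster 4 and 98.3% of those of subcluster 5, so both alternatives left out many of the same cells. The number of the 10 genes at least 1.5-fold higher, 1 in the report, was 2 with 90% of tag reads, 2 with at most 10% mitochondrial UMIs, 2 with the mean of UMIs per 10000 of each cell, 3 after thinning to 1000 UMIs and 4 at the lower fold limit tried. The number at least 1.5-fold lower, 0 in the report, was 3 with no scaling, where the median of all genes moved by -0.41. It was 1 with the same subcluster weights in both groups, without the cluster of lowest depth, or without subclusters 4 and 5. Relative to the moved median, the count with no scaling was again 0. For the other counts, apart from that at the lower fold limit, the cause was not tested. With ratios taken relative to the median gene only for the scalings that moved it (-0.12 and -0.41), *Id2* changed sign under 4 of 21 alternatives, *Tgfbr2* under 2 and *Inhba* under 1 (without subcluster 2), and the other 7 genes kept theirs. Within their intervals were 155 log2 ratios while 55 moved. For CPM by class these numbers were 148 and 12, for CPM by subcluster 14 and 6, for counts of genes 41 and 9, and for shares of cells after thinning 0 and 20. Thinning removes UMIs and so lowers such shares by design, and nothing is read from these 20. The alternatives without subcluster 4, 4 and 5, or 2, with cells of at least 2000 UMIs, and with the *Cd209a* dendritic-like cluster added were chosen after seeing the data. No paired analysis was possible because each group is 1 pool with no replicate numbers, and for the same reason no replicate could be left out. The lower depth of the treated cells limits genes with few UMIs such as *Id1* and *Id3*.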
